A study of Ovis aries with 16 samples.

Results

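The comparison described here asks whether the difference that ketamine made to gene expression in the hippocampus of fetal sheep depended on oxygen. It used all 16 arrays of the series, sorted by their labels into 4 groups: normoxia control (NC, n = 3), normoxia with ketamine (NK, n = 4), hypoxia control (HC, n = 5) and hypoxia with ketamine (HK, n = 4). The fetuses were in late gestation and carried catheters placed by earlier surgery, and hypoxia was produced in the ewe for 30 min. Ketamine was given into a fetal vein at 3 mg/kg before the stimulus, and fetuses of NC and HC received none. All fetuses then recovered in normoxia for 23.5 h, so the hippocampus was taken 24 h after the stimulus began. No genotype or strain was given, and all but 1 of the fetuses were twins. The paper states that normoxia or hypoxia was assigned at random to each pregnancy, so litter mates shared an oxygen condition. Which fetuses shared a ewe is not given in the sources used here, so the p-values treat litter mates as independent samples.

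The quantity reported for each probe is the interaction term, the HK minus HC difference less the NK minus NC difference, on the log2 scale. A positive term means that the ketamine difference was higher in hypoxia than in normoxia, and a negative term that it was lower. Levels are log2 fluorescence relative to the 75th percentile of the same array, so a negative level is a signal dimmer than that percentile. They order the arrays for 1 probe and cannot be set against another probe. A term used the 3 NC arrays as well as all others, so each gene with a large term shares the same few normoxic controls.

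Ketamine blocks the NMDA receptor, a glutamate-gated channel that admits calcium into neurons and is dense in the hippocampus. Glutamate also acts through AMPA receptors, which carry fast transmission, and through metabotropic receptors coupled to G proteins, while transporters on astrocytes and neurons clear it. Low oxygen stabilises hypoxia-inducible factors, which bind DNA as dimers with ARNT. Toll-like receptors (TLRs) on microglia and other innate immune cells signal through MYD88 and the IKK complex to NF-kB, which raises cytokine transcription.

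Over the 16 arrays the 75th percentile of intensity ran from 882 to 1199, and between 76.7% and 82.6% of spots per array were well above background. The neuronal markers SST, NPY, GRIA1, GRIA2 and GRIN1 were well above background on all arrays. They mark neurons and do not tell hippocampus from other brain regions, and no oligodendrocyte marker of the list used was among the named probes. HC replicate 5 stood apart: its level of SST, the interneuron peptide somatostatin, was 1.86 against 4.20 to 5.22 on the other 15 arrays, and the summed level of 5 neuronal markers was 9.76 times the 75th percentile against 28.5 to 48.6 elsewhere. TTR, the transthyretin of choroid plexus, ranged from -1.43 to 6.41 with low and high arrays in every group. Of the 28 named probes that passed with all arrays, 9 did not pass when HC replicate 5 was left out: those of FCGR1A, TNFRSF1A, TCRD19, TPSB2, MDD2, NCK1, NUS1, PTGFR and NFAT5. That number was not unusual. Leaving out another array lost from 4 (HC replicate 1) to 14 (NC replicate 3) of the 28. Fewer cells of a type and less RNA per cell cannot be told apart in these whole-tissue samples.

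Among 12545 probes tested, the interaction term was above 0 for 307 and below 0 for 124 at an unadjusted limma p under 0.05, the criterion the study used. These are 2.45% and 0.988% of the probes, and together 3.44%, below the 5% that this criterion passes on average when nothing differs. None passed after Benjamini-Hochberg adjustment, the smallest adjusted p being 1.00. The p-values given below are unadjusted limma values unless another test is named, and the adjusted p was 1.00 for every gene named. The term of a typical probe was known to within 0.55 on the log2 scale at 95% confidence, and the median term was 0.01. Only 1270 of the probes tested carried a gene name, for 813 names, and 45 of these named probes passed (3.54%). The term was above 0 in 29 of them (2.28%) and below 0 in 16 (1.26%). By the brightest probe of each gene name, which the lists below use, 3.81% of names passed, 2.46% upward and 1.35% downward.

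The probes that passed had one shape. The ketamine difference had opposite signs in the 2 oxygen conditions in 305 of the 307 probes with a positive term and in 118 of the 124 with a negative term, against 52.7% of all probes tested. In 299 of the 307, both NK and HC lay below NC, and in 119 of the 124 both lay above NC. For the positive terms the median difference was -0.32 for NK minus NC, 0.34 for HK minus HC and -0.49 for HC minus NC. For the negative terms the medians were 0.31, -0.38 and 0.44. The same 2 differences make up the term, so this describes how the probes passed and is no separate result. Among the 45 named probes all had opposite signs of the ketamine difference in normoxia and hypoxia.

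The direction of many of these terms turned with normexp background correction when no quantile normalization followed it. With normexp correction the median term of all probes moved to -0.31, none of the 28 probes named below that passed kept a p under 0.05, and 17 of them, all 17 with a positive term, turned negative, while relative to that median 18 of 28 kept their sign. When normexp was followed by quantile normalization, a setting chosen after seeing the data, 0 of the 28 changed sign and 11 kept a p under 0.05. With quantile normalization of the processed intensity 26 of the 28 kept a p under 0.05. With the deposited values 7 did, those of IKBKB, MDD2, LIPA, NCK1, TRAF3 and PTGFR and the brighter probe of GRIA4. The probes of ARNT, AHR, SLC4A4 and SLC2A4 were not among these. All 28 kept their sign when any 1 array was left out, but only 8 kept a p under 0.05 each time, both probes of GRIA4 and the probes of AHR, ARNT, TRAF3, SLC4A4, SLC2A4 and IKBKB.

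**Figure D1:**
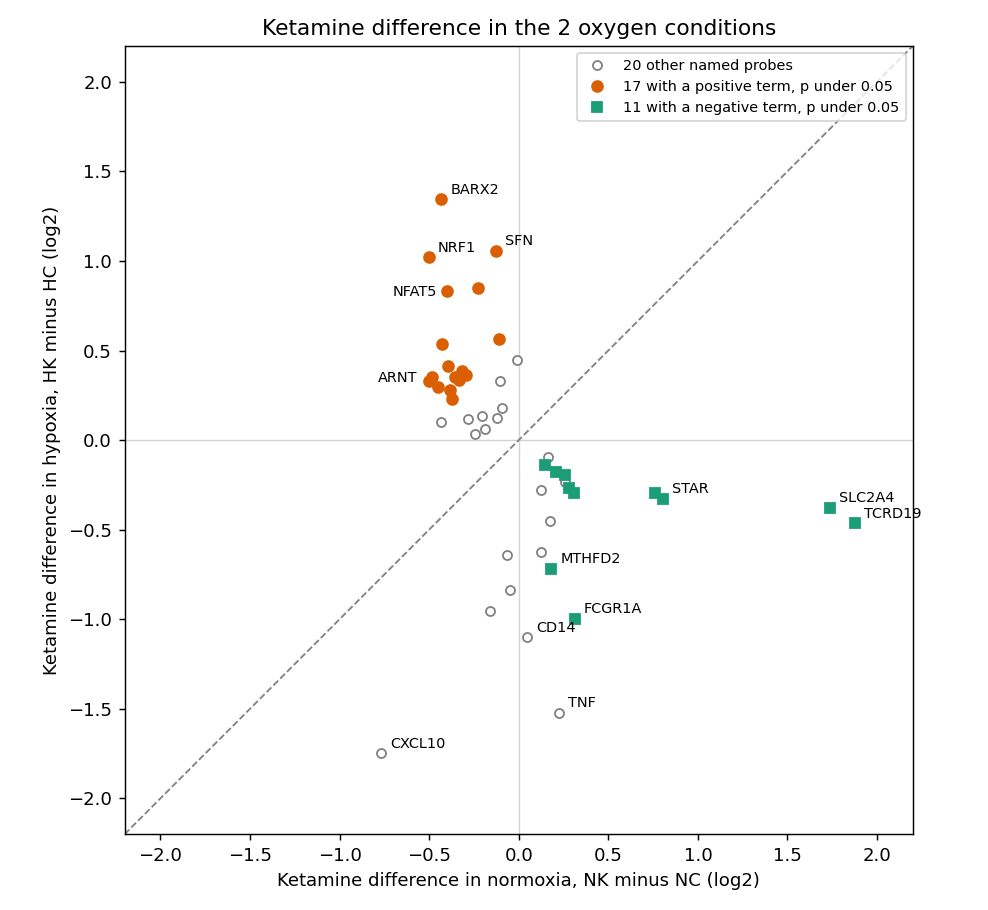
Ketamine difference in normoxia (NK minus NC, x axis, log2) against that in hypoxia (HK minus HC, y axis, log2) for the 48 probes named by the rule for named genes, each a difference of group means. On the dashed line the term is 0. The 17 filled circles (positive term) lie to the upper left and the 11 filled squares (negative term) to the lower right, and the 20 open circles did not pass.

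The smallest p among named probes was that of ARNT, the shared dimer partner of hypoxia-inducible factors and of the aryl hydrocarbon receptor. Its level was -5.67, -5.50 and -5.71 in NC, -5.92, -6.21, -6.14 and -6.16 in NK, -6.01, -6.23, -5.96, -6.29 and -6.36 in HC, and -6.08, -5.91, -5.51 and -5.76 in HK. Every NK and HC array lay below every NC array, and 3 of the 4 HK arrays lay above all HC arrays. The ketamine difference was -0.48 ± 0.14 (SE) in normoxia and 0.35 ± 0.12 in hypoxia, a term of 0.84 ± 0.19 (p = 0.000534, exact permutation p = 0.00136). ARNT was measured by a pair of probes that share 59 of 60 bases, and they are printed because their terms were alike while only one passed. Capitals mark the bases the pair shares, 5′ to 3′.
ARNT probe 1: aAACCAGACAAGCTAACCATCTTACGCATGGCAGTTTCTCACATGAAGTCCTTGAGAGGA
ARNT probe 2: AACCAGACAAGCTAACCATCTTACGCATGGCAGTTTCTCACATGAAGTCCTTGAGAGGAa
The first probe gave the term above, and the second gave 0.86 and did not pass. On slide 1 alone the first probe gave 0.60 and on slide 2 alone, which held 1 NC array, 1.01. With the deposited values it gave 0.034 and did not pass, and with normexp it gave -0.67.

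AHR, the aryl hydrocarbon receptor, is a ligand-activated factor that binds DNA together with ARNT. It took the same shape, with levels of -5.21, -4.93 and -4.82 in NC, -5.39, -5.44, -5.31 and -5.34 in NK, -5.55, -6.07, -5.78, -5.53 and -5.78 in HC, and -5.36, -5.87, -5.10 and -5.50 in HK. NK and HC each lay wholly below NC, while HK overlapped HC. Its ketamine difference was -0.38 in normoxia and 0.28 in hypoxia, a term of 0.67 ± 0.23 (p = 0.0102, exact permutation p = 0.00794). The term was 0.036 with the deposited values, which did not pass, and -0.71 with normexp.

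ARNT and AHR were the only 2 of 18 tested genes of the hypoxia list that passed, and 9 of the 18 terms were above 0 and 9 below. HIF1A, the oxygen-regulated subunit itself, had a term of -0.15 ± 0.25. VEGFA, the angiogenic factor that hypoxia-inducible factors induce, had a term of 0.76 ± 0.41, which did not pass, with a ketamine difference of -0.32 in normoxia and 0.44 in hypoxia. The glucose transporter SLC2A3 had a term of -0.86 ± 0.41 and SLC2A1, which crosses the blood-brain barrier, one of -0.07 ± 0.31, and neither passed. The members of this list did not move together.

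Among glutamate receptors and transporters 1 of 11 genes passed, GRIA4, which encodes an AMPA receptor subunit prominent in interneurons and early in development. Its brightest probe read -2.60, -2.75 and -2.71 in NC, -2.94, -3.23, -2.63 and -3.13 in NK, -2.90, -3.29, -2.99, -2.95 and -3.06 in HC, and -2.43, -2.98, -2.62 and -2.66 in HK. HC lay wholly below NC, and 3 of the 4 HK arrays lay above all HC arrays. The ketamine difference was -0.29 ± 0.15 in normoxia and 0.37 ± 0.13 in hypoxia, a term of 0.66 ± 0.20 (p = 0.00616, exact permutation p = 0.00635). The second probe overlaps the first by 29 bases and gave 0.71 ± 0.25 (p = 0.0141, exact permutation p = 0.0195). Both are printed with the shared bases in capitals, since most of each probe is its own.
GRIA4 probe 1: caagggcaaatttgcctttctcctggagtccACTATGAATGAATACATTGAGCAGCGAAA
GRIA4 probe 2: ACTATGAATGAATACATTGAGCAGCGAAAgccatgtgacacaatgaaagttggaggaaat
Neither probe lost its p under 0.05 when any 1 array was left out.

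The other 10 genes of the glutamate list did not pass, and 9 of them had a positive term. GRIN1, the obligatory NMDA receptor subunit and so a part of the target of ketamine, had a term of 0.53 with a 95% interval from -0.84 to 1.89 (p = 0.420, exact permutation p = 0.407). Its level was -3.23 in HC replicate 5 against -1.77 to -1.06 on the other 4 HC arrays, and without that array its term was 0.16. The AMPA subunits GRIA1, GRIA2 and GRIA3 had terms of 0.34, 0.27 and 0.25, or 0.15, 0.14 and 0.14 without HC replicate 5. The metabotropic receptors GRM5, GRM3 and GRM7 had terms of 0.43, 0.46 and 0.24. The astrocyte transporters SLC1A2 and SLC1A3 gave 0.28 and 0.40, and the neuronal transporter SLC1A1 was the exception at -0.26. The median term of the list was 0.34 against 0.01 over all probes, and 0.18 without HC replicate 5. The median ketamine difference of the list was -0.19 in normoxia and 0.12 in hypoxia. The summed level of the 5 neuronal markers was 35.8 to 42.0 in NC, 32.8 to 47.4 in NK, 9.76 to 47.7 in HC and 44.8 to 48.6 in HK, and its part in these terms was not tested. GRM8, a presynaptic receptor named by the size of its term and not in the list, had a term of 1.08 ± 0.48 (p = 0.0423, exact permutation p = 0.0562).

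**Figure D2:**
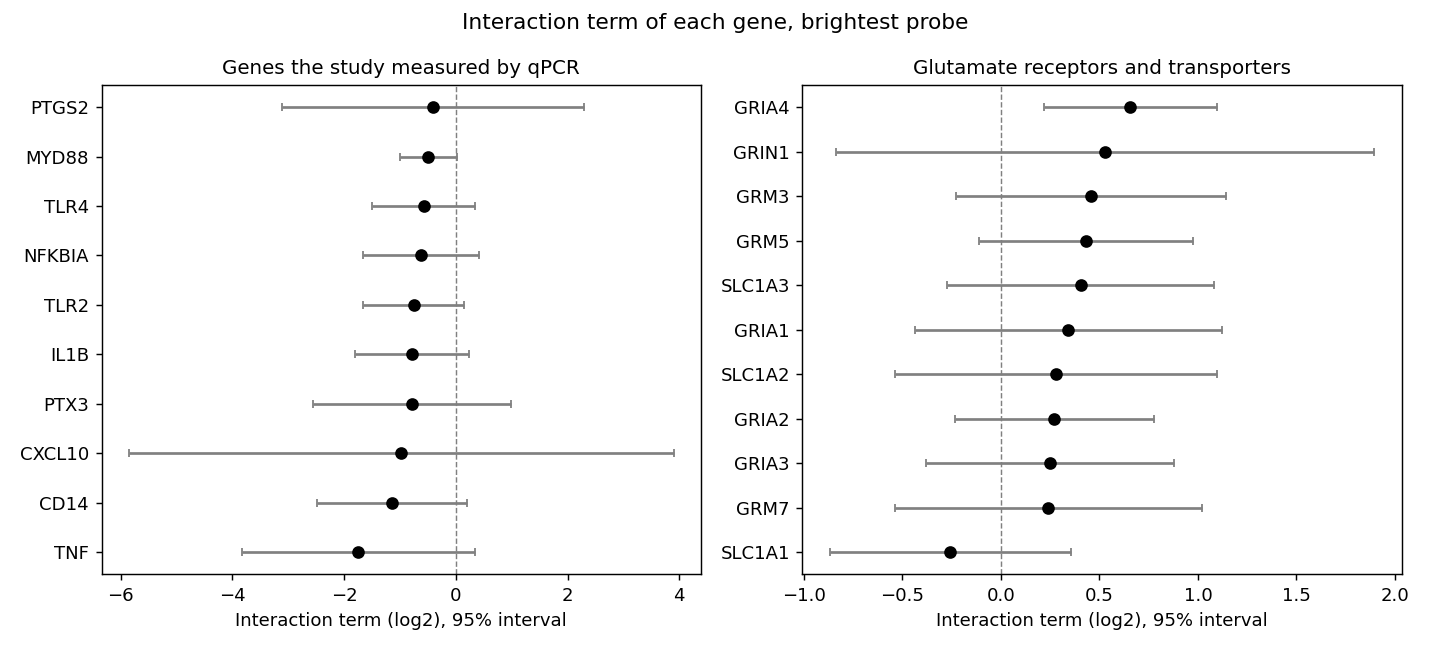
Interaction term (x axis, log2) with its 95% interval from limma for the brightest probe of each tested gene of the qPCR list (left, 10 genes) and of the glutamate list (right, 11 genes). All 10 terms on the left lie below 0 with intervals that cross it, and on the right 10 of 11 lie above 0 with the interval of GRIA4 alone clear of it.

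PRKAA2, the α2 catalytic subunit of the energy sensor AMPK, read -4.53, -4.72 and -4.33 in NC, -4.76, -5.00, -4.51 and -5.15 in NK, -4.80, -5.04, -4.95, -5.00 and -5.04 in HC, and -4.74, -5.12, -4.27 and -4.38 in HK. HC lay wholly below NC, and HK spread over both. Its term was 0.67 ± 0.26 (p = 0.0208, exact permutation p = 0.0254), and its second probe gave 0.41 and passed too.

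THRB, the thyroid hormone receptor β that controls neuronal maturation, had HK arrays that all lay above all HC arrays. It read -2.81, -3.07, -3.15, -3.28 and -3.42 in HC and -2.70, -2.62, -2.33 and -2.68 in HK, against -2.70, -2.36 and -2.69 in NC and -2.96, -2.43, -2.33 and -3.06 in NK. The difference was 0.57 ± 0.17 in hypoxia and -0.11 ± 0.19 in normoxia, a term of 0.68 ± 0.26 (p = 0.0192, exact permutation p = 0.0358).

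TRAF3, an adaptor that restrains NF-kB and supports interferon induction downstream of TLRs, was the only one of 10 tested TLR pathway genes that passed. It read -2.01, -2.02 and -2.17 in NC, -2.50, -2.52, -2.15 and -2.59 in NK, -2.54, -2.75, -2.51, -2.76 and -2.82 in HC, and -2.30, -2.73, -2.24 and -2.51 in HK. Its term was 0.60 ± 0.19 (p = 0.00565, exact permutation p = 0.00726), in the direction opposite to the list median of -0.34, and its second probe gave 0.54 and passed too.

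SLC4A4, a sodium bicarbonate cotransporter of astrocytes and choroid plexus, had the second smallest p. It read -5.13, -5.49 and -4.79 in NC, -5.22, -5.92, -5.29 and -5.83 in NK, -5.72, -5.77, -5.58, -5.77 and -5.33 in HC, and -5.19, -5.00, -4.83 and -5.37 in HK. The ketamine difference was -0.43 in normoxia and 0.54 in hypoxia, a term of 0.96 ± 0.28 (p = 0.00351, exact permutation p = 0.00658). The term was 0.069 with the deposited values, which did not pass, and -0.57 with normexp. None of the other 5 tested choroid plexus markers passed, and their summed level together with SLC4A4 spanned 1.84 to 89.4 in NC, 1.27 to 91.3 in NK, 3.03 to 79.1 in HC and 3.16 to 51.4 in HK. Its part in the term was not tested.

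**Figure D3:**
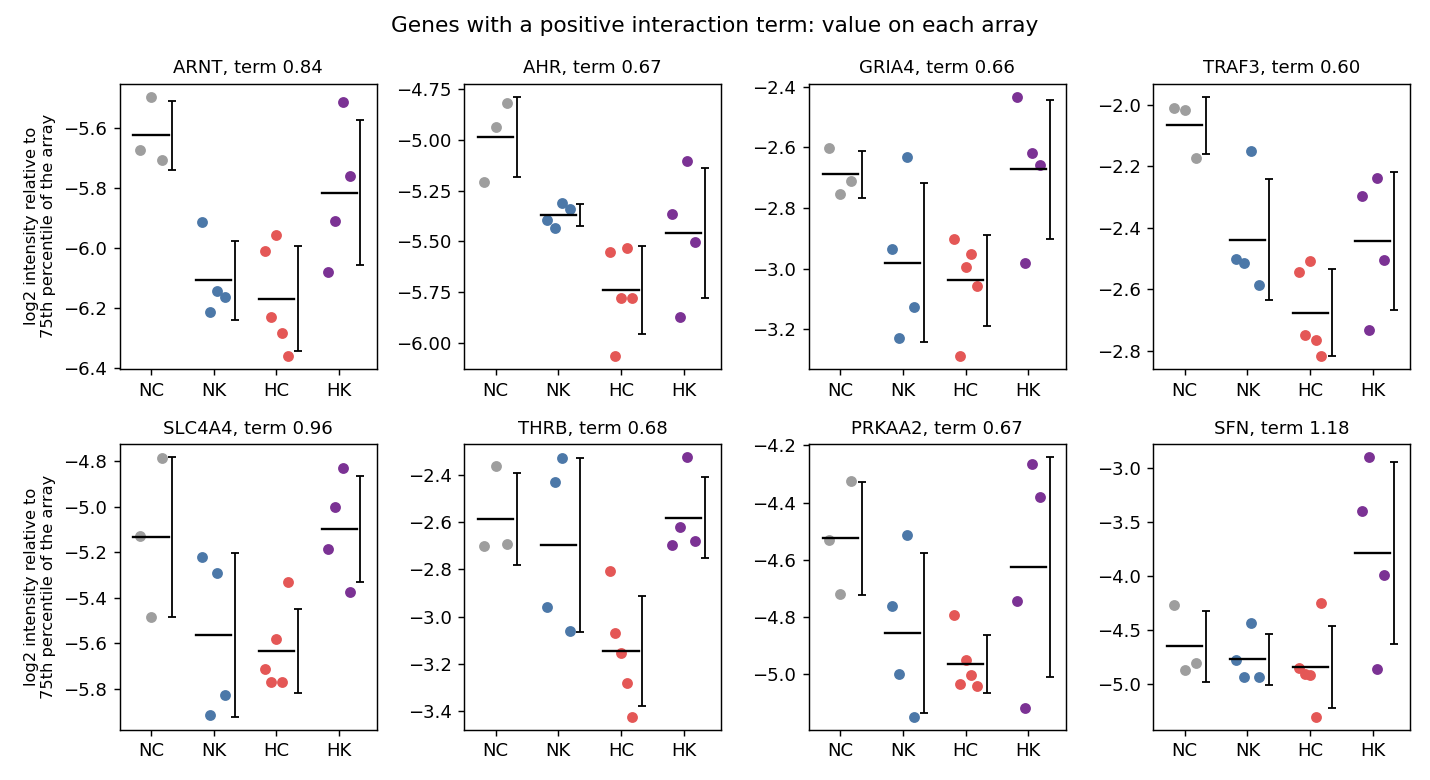
Level on each array (y axis, log2 intensity relative to the 75th percentile of the array) for 8 genes with a positive term. Points are arrays, horizontal bars group means and the vertical bars 1 SD. In all 8 panels the NK and HC means lie below the NC mean and the HK mean lies above the HC mean.

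The largest positive terms came with wide errors. BARX2, a homeobox transcription factor, had a term of 1.78 ± 0.79 (p = 0.0406, exact permutation p = 0.0553), with HK levels of -3.25, -2.94, -4.74 and -4.27 against a spread from -6.00 to -3.92 in HC. NRF1, a transcription factor, had a term of 1.52 ± 0.60 (p = 0.0243, exact permutation p = 0.0240), and its brighter second probe gave 0.39 and did not pass. The probe that passed was well above background on only 2 of the 4 NK and 2 of the 5 HC arrays. NFAT5, the osmotic stress factor, had a term of 1.23 ± 0.52 (p = 0.0333, exact permutation p = 0.0200). It was well above background on 3 of the 5 HC and 3 of the 4 HK arrays. SFN, the 14-3-3 protein stratifin, read -3.40, -2.90, -4.86 and -4.00 in HK and -4.85, -4.91, -4.92, -5.31 and -4.25 in HC, a term of 1.18 ± 0.48 (p = 0.0280, exact permutation p = 0.0279).

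JAG1, a Notch ligand, had a term of 0.83 on 1 probe and 0.34, not past the criterion, on a probe sharing 59 bases with it. CAUXIN, a carboxylesterase-like protein, had a term of 0.81 and was well above background on 1 of the 3 NC arrays. PTGFR, the prostaglandin F receptor, had a term of 0.75 and was the 1 of 8 tested genes of the arachidonate and acute phase list that passed. It lost that call in 9 of the 16 fits that left out 1 array each, and without NC replicate 3, the array with its highest level, the term was 0.39. NUS1, a subunit of the enzyme that makes dolichol, had a term of 0.70. SLC15A1 was well above background on no NC array, so its positive term rests on a level that was not measured there. The remaining named probes with a positive term belonged to ADRB1, ACVR2B, BAX, GUCY1B1, NOG, PRNP and ROBO2. Brighter probes of PRNP gave terms of 0.14 and 0.11 and did not pass.

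The negative terms included several genes of immune cells and their signalling. FCGR1A, the high-affinity IgG receptor of monocytes and microglia, read -4.60, -4.58 and -3.97 in NC, -4.60, -3.95, -4.08 and -3.65 in NK, -4.34, -2.47, -3.86, -2.12 and -3.49 in HC, and -4.93, -3.87, -3.88 and -4.33 in HK. Of the 5 HC arrays, 4 lay above all HK arrays. The ketamine difference was 0.31 ± 0.46 in normoxia and -0.996 ± 0.401 in hypoxia, a term of -1.31 ± 0.61 (p = 0.0492, exact permutation p = 0.0474). It was the 1 of 10 tested microglia and macrophage genes that passed, the median term of that list was -0.70, and without HC replicate 5 FCGR1A gave -1.37 and did not pass. The list median shrank to -0.04 with the deposited values and to -0.09 with normexp and quantile normalization.

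TNFRSF1A, the main receptor for tumour necrosis factor, read -4.32, -4.24 and -4.25 in NC, -4.20, -3.56, -4.08 and -4.01 in NK, -4.00, -3.60, -4.18, -3.66 and -3.56 in HC, and -4.41, -3.78, -4.17 and -4.00 in HK. All NK and all HC arrays lay above all NC arrays, and the HK range covered all of NC. Its term was -0.60 ± 0.25 (p = 0.0305, exact permutation p = 0.0231), and it was the 1 of 23 tested cytokine and receptor genes that passed. Without HC replicate 5 the term was -0.54 and did not pass, and it lost the call without NC replicate 1, NK replicate 2, HC replicate 2, HK replicate 1 or HK replicate 3 as well.

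IKBKB encodes the kinase that frees NF-kB by marking its inhibitor for destruction. A pair of probes for it shares 40 bases, and they are printed with those bases in capitals because they did not give the same answer.
IKBKB probe 1: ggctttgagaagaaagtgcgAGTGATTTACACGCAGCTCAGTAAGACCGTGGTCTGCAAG
IKBKB probe 2: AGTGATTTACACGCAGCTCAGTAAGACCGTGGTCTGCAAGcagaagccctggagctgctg
Probe 2 gave a term of -0.55 ± 0.20 (p = 0.0157, exact permutation p = 0.0136), with levels of -4.89 to -4.72 in NC and -4.54 to -4.18 in HC. Probe 1, the brighter, gave -0.17 ± 0.19 and did not pass. Both were well above background on all 16 arrays.

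A starker case was SLC2A4, the insulin-responsive glucose transporter, whose pair of probes is offset by 1 base. Their first 30 bases are printed with the shared stretch in capitals.
SLC2A4 probe 1: gGGCAGGGAGAAAAAACTGAAGGTCTGTTG
SLC2A4 probe 2: GGCAGGGAGAAAAAACTGAAGGTCTGTTGt
Probe 2 read -7.19, -5.71 and -6.61 in NC and -4.79, -4.12, -4.21 and -5.93 in NK, and gave a term of -2.12 ± 0.69 (p = 0.00818, exact permutation p = 0.0302). Probe 1 read -6.73, -5.57 and -5.55 in NC and -7.17, -4.03, -5.49 and -6.04 in NK, and gave -0.42 ± 0.74 and did not pass. In NK replicate 1 the 2 nearly identical probes differed by more than the term of either. Probe 2 was well above background on 1 of the 3 NC arrays.

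MTHFD2, a mitochondrial enzyme of folate metabolism, read -4.04, -3.95 and -4.13 in NC, -4.14, -3.76, -4.07 and -3.45 in NK, -2.63, -2.11, -3.31, -1.86 and -3.05 in HC, and -2.74, -3.46, -3.68 and -3.35 in HK. HC and HK both lay wholly above NC, and HK overlapped HC. Its term was -0.90 ± 0.42 (p = 0.0492, exact permutation p = 0.0474), and its second probe gave -0.74 and did not pass.

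LIPA, the lysosomal acid lipase, had a term of -0.38 ± 0.16 (p = 0.0318, exact permutation p = 0.0229), with all NK arrays above all HK arrays. NCK1, an SH2 and SH3 adaptor, had a term of -0.28 ± 0.13 (p = 0.0470, exact permutation p = 0.0195), and the array's probe named MDD2 had one of -0.45 ± 0.20 (p = 0.0387, exact permutation p = 0.0365). TPSB2, a tryptase of mast cells, had a term of -1.05 ± 0.47 (p = 0.0401, exact permutation p = 0.0510), and TCRD19, by its name a T cell receptor δ chain, one of -2.34 ± 1.05 (p = 0.0418, exact permutation p = 0.0776). Both were well above background on 1 of the 3 NC arrays.

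STAR, which carries cholesterol into mitochondria for steroid synthesis, was well above background on no NC array and on all HC and HK arrays. Against the lowest signal well above background it was at least 3.80-fold higher in HC than in NC. In NK it was well above background on 3 of the 4 arrays, and its NK levels (-7.33 to -5.61) overlapped those of NC (-7.19 to -6.94). No such bound holds for NK. Its measured term of -1.13 therefore rests on an NC level that is only a bound. The other named probes with a negative term and without signal in some group belonged to ZFP36, CLN6 and FSHR, beside a second probe each of STAR and TPSB2. Brighter probes of ZFP36 and CLN6 gave terms of -0.19 and 0.11 and did not pass.

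**Figure D4:**
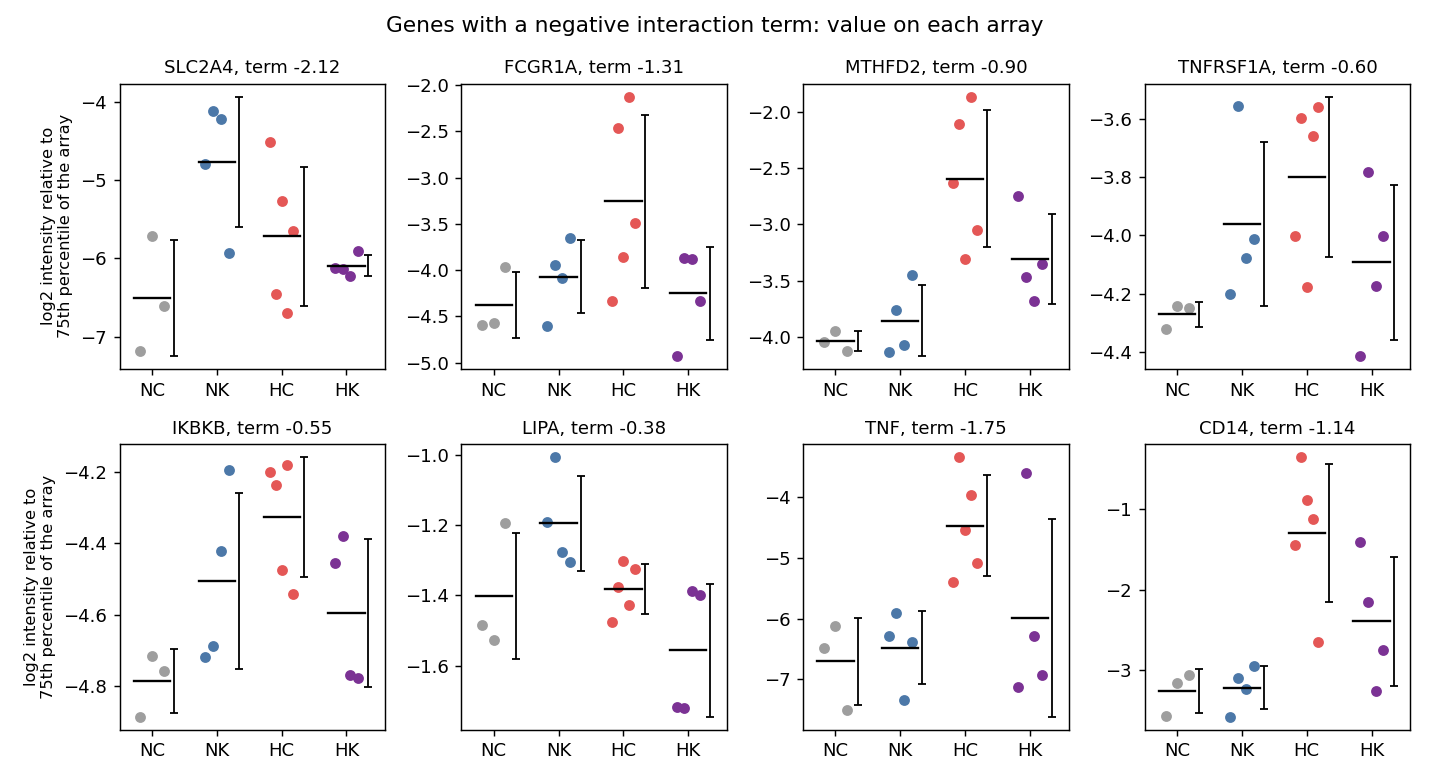
Level on each array (y axis, log2 intensity relative to the 75th percentile of the array) for 6 genes with a negative term and for TNF and CD14, which did not pass. Points are arrays, horizontal bars group means and the vertical bars 1 SD. In all 8 panels the HC mean lies above the NC mean and the HK mean lies below the HC mean.

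The study chose 14 genes for qPCR, 10 of which were tested here, and since they were picked from results in these fetuses their direction is not independent evidence. None of the 10 passed the interaction test with limma and the 4 groups alone in the fit, at an unadjusted p under 0.05 or adjusted. CD14, NFKBIA, PTX3, TLR2 and TNF had an unadjusted limma p under 0.05 with the replicate number as a block. This also held with that block within each oxygen condition. All 10 had a negative term in the main fit, with a median of -0.77 against 0.01 over all probes and -0.997 without HC replicate 5. With the deposited values the 10 terms stayed negative, from -0.09 for MYD88 to -0.96 for CXCL10, and that of TNF shrank to -0.12. In hypoxia ketamine lowered 5 of the 10, CD14, IL1B, TLR2, TLR4 and TNF, against 1.87% of all probes that were lower in HK than in HC, 2.86% that were higher and 4.73% in all. In normoxia 0 of 10 passed, against 1.78% of all probes, 0.709% higher and 1.07% lower in NK. The term, which tests that contrast, passed for none of the 5 with all arrays and the 4 groups alone in the fit.

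TNF read -6.49, -6.12 and -7.51 in NC, -6.29, -5.91, -7.34 and -6.39 in NK, -5.41, -3.34, -4.55, -3.96 and -5.08 in HC, and -7.12, -3.60, -6.29 and -6.94 in HK. Its HC levels lay wholly above NC, and 3 of 4 HK arrays lay within the NC range while HK replicate 2 stayed at the HC level. TNF was well above background on 2 of the 3 NC, 3 of the 4 NK, all 5 HC and 2 of the 4 HK arrays. Some of its low levels, and so part of its term, therefore rest on signal near background. The term was -1.75 with a 95% interval from -3.84 to 0.34 (p = 0.0942, exact permutation p = 0.0975), and without HK replicate 2 it was -2.54 and passed.

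CD14, the co-receptor through which TLR4 senses endotoxin, read -3.57, -3.15 and -3.05 in NC, -3.57, -3.09, -3.23 and -2.95 in NK, -1.44, -0.35, -0.88, -1.12 and -2.65 in HC, and -1.40, -2.15, -3.26 and -2.74 in HK. Its term was -1.14 with an interval from -2.48 to 0.19 (p = 0.0875, exact permutation p = 0.0921), and without HC replicate 5 it was -1.49 and passed. The receptors TLR2 and TLR4 had terms of -0.75 (p = 0.0959, exact permutation p = 0.0932) and -0.58 (p = 0.203, exact permutation p = 0.201), and the shared adaptor MYD88 one of -0.50 (p = 0.0556, exact permutation p = 0.0578).

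NFKBIA, the NF-kB inhibitor that NF-kB itself induces, had a term of -0.63 (p = 0.220, exact permutation p = 0.188), and -0.96 without HC replicate 5, whose level of 0.58 lay below the other 4 HC arrays at 2.01 to 2.48. PTX3, a soluble pattern recognition protein, had a term of -0.79 (p = 0.356, exact permutation p = 0.354), and -1.42 without that array. Leaving out HC replicate 5 thus brought 4 of the 10 under 0.05, CD14, NFKBIA, PTX3 and TLR2, and leaving out HK replicate 2 brought 4 under it, IL1B, MYD88, TLR4 and TNF. IL1B had a term of -0.78 (p = 0.124, exact permutation p = 0.136), CXCL10, an interferon-induced chemokine, one of -0.98 ± 2.28 (p = 0.674, exact permutation p = 0.670), and PTGS2, the inducible cyclooxygenase, one of -0.41 (p = 0.753, exact permutation p = 0.757). Without HC replicate 5 the PTGS2 term was -1.26, without HC replicate 4 it was 0.076, and without HK replicate 1 the CXCL10 term was 0.45, so for these 2 genes 1 array decided the sign. The CXCL10 levels ran from -0.73 to 5.34 in HC and from -3.81 to 3.51 in HK, and the 95% interval of its term ran from -5.85 to 3.90.

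The immune lists leaned the same way with few genes past the criterion. The median term was -0.53 over 23 cytokine, chemokine and receptor genes, -0.38 over 12 interferon response genes with 11 of them negative, and -0.34 over 10 TLR pathway genes. No interferon response gene passed, the most negative term being that of MX2, an antiviral GTPase, at -1.52 ± 1.31. The summed level of 5 microglia and macrophage markers was 0.505 to 0.637 in NC, 0.545 to 0.647 in NK, 0.837 to 2.12 in HC and 0.578 to 1.03 in HK, with FCGR2B well above background on no NC and no HK array. The part of these cells in the immune terms was not tested. The neutrophil list had a median of 0.51 over 5 genes, with 3 terms above 0, 2 below and none past the criterion. Leaving out 1 array moved that median between 0.11 and 0.99. Its marker CATHL3, a cathelicidin, had a term of 1.96 ± 1.81, while ITGB2 and ITGAL had -0.23 and -0.51.

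Medians were nearer 0 in several other lists. The median term was -0.06 over 9 apoptosis genes and 0.12 over 6 immediate early genes. It was 0.10 over 11 genes of the insulin-like growth factor axis and 0.01 over 10 steroid and nuclear receptor genes. Over 12 matrix genes it was -0.24, and 8 of them had a term below 0, so that list leaned downward too. Among apoptosis genes the survival factor MCL1 had a term of -0.60 ± 0.29. The pore-forming BAX had 0.36 ± 0.19 on its brightest probe, which did not pass, and 0.42 on a probe sharing 59 bases, which did. In the steroid list THRB passed upward and STAR downward. Of 3 tested plasticity kinases and growth signals, PRKAA2 passed. Both tested MAPK and JAK/STAT genes and both tested NF-kB genes, by their brightest probes, did not.

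**Figure D5:**
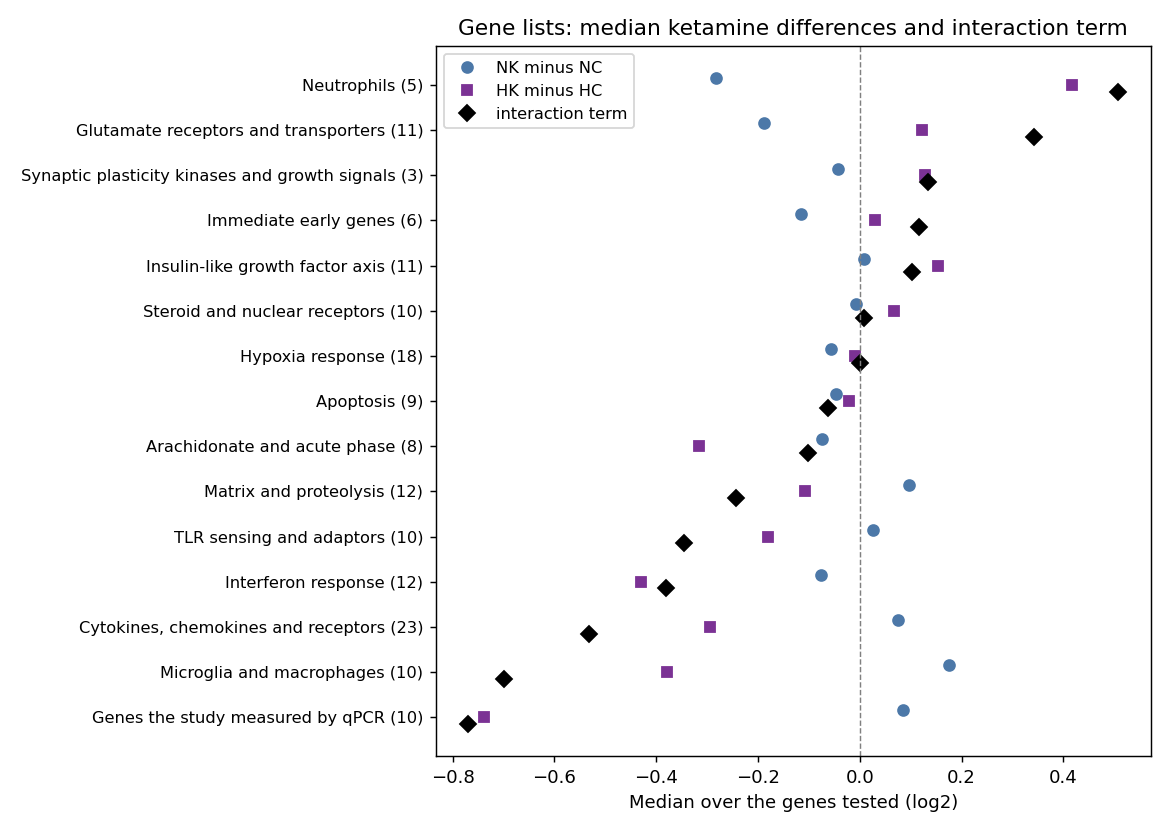
Median over the tested genes of each pathway list (number of genes in brackets) of the ketamine difference in normoxia (circles), in hypoxia (squares) and of the interaction term (diamonds), on a log2 x axis. The qPCR genes have the lowest median term, at -0.77, and the neutrophil list the highest, at 0.51.

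Each slide held its own fetuses and all 4 groups, but slide 2 held 1 NC array, so every slide 2 term rests on that array for NC and assumes that it varies like the other groups. Over 12540 probes the terms of slide 1 and slide 2 had a Pearson r of 0.14 and the same sign in 56.0% of probes. Of 351 probes past the criterion on slide 1 alone, 63.0% had the same sign on slide 2, and 29 passed on both. Among the 28 named probes that passed with all arrays, 27 had the same sign on both slides, but those probes were chosen with both slides in view. Pairs of probes that share 50 or more bases gauge only the noise of spots and probes. Both probes of a pair read the same RNA on the same arrays, so they share the differences between fetuses. Over 226 such pairs the terms differed by a median of 0.11 and by more than 1 in 11 pairs. Of 11 pairs in which 1 or both passed, both passed in 5 and the signs were alike in all 11.

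Of probes without a gene name, those with the smallest p in each direction and signal in every group had terms of 0.79 ± 0.17 and 0.73 ± 0.17, and of -0.96 ± 0.21 and -0.93 ± 0.25. The first of these held the smallest p of all 12545 probes.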

How the data were processed

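Total RNA of whole fetal hippocampus (RNA integrity numbers 7.7 to 9.2) was labelled with Cy3 and hybridised to 1-colour ovine arrays, 8 to a slide on 2 slides. The authors extracted spot intensity with Feature Extraction 10.1.1.1 per the file headers, with background subtraction and detrending and no scaling between arrays. The deposited table of log2 values was quantile normalized, with an offset that is not given in the sources used here, and served as an alternative. The submitters' processing notes name R 2.15.1 and limma.

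Here log2 of the processed intensity less the 75th percentile of each array was averaged over spots of a probe, leaving out controls and outlier spots. Of 15008 probes, 12545 were tested, those well above background (13 times the background SD) on at least 3 of 16 arrays. The interaction term was fitted with limma 3.58.1 (R 4.3.3) on all 16 arrays with the 4 groups as factor levels, 12 residual and 2.18 prior degrees of freedom, two-sided, and adjusted by Benjamini-Hochberg over all probes. Exact permutation p-values came from 4410 two-sided rearrangements of the ketamine labels within each oxygen condition, one named probe at a time. They are exact where ketamine made no difference in either condition, which is a narrower premise than equal differences in both. The script was tested on simulated data with known terms. The number of arrays limits the precision. Separate samples are separate fetuses.

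Gene names came from the array and from RefSeq gene tables, for 10.4% of probes, some read from older names. Named were up to 12 probes with the largest terms in each direction among those that passed with signal in every group, all pathway-list genes whose brightest probe passed, the qPCR genes, and the glutamate genes, of which 1 is not reported here. Other probes that passed are listed by name. Cell type markers for 9 cell types were read for composition. The members and lists were chosen with earlier results of these data known. Alternatives changed the background correction, scaling, filter, blocking, prior and weights, the probe, and left out each array. Probe sequences are from the scanner files, and no genome was used.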

Additional observations from a re-analysis of the deposited data

Results flagged for a closer look

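In groups of 4 or 5 arrays, a single array stood far from the others in 7 of 144 groups of the probes named, and chance alone gives about 1 in 20, or 7.20. The gap between that array and its nearest neighbour, as a share of the range of the group, is given for each. GRIA2 was lowest in HC replicate 5 (gap 0.825, level 1.35), as was NFKBIA (0.752, level 0.58). HC replicate 1 was highest for GRM7 (0.856) and lowest for MDD2 (0.808). NK replicate 3 was highest for NUS1 (0.918). GRM5 was lowest in HK replicate 4 (0.927) and TCRD19 in HK replicate 1 (0.867). The causes were not tested.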

How the results depend on the processing

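The 307 positive and 124 negative terms became 58 and 40 with normexp background correction, 475 and 283 with the replicate number as a block within each oxygen condition, and 20 and 11 with 1 probe per gene name. There were 190 positive terms on slide 1 alone, 244 negative ones with the replicate block and 221 negative ones with array weights. Leaving out each array gave 231 to 450 positive and 92 to 219 negative terms, the most negative ones without HC replicate 1. No probe passed adjustment in any of these. With normexp the terms became -0.041 for TRAF3, -0.28 and -0.12 for the probes of GRIA4, -0.71 for AHR, -0.48 for PRKAA2, -0.16 for THRB, -0.018 for NUS1, -0.29 for PTGFR, -0.75 for CAUXIN, -0.82 for JAG1, -0.67 for ARNT, -0.57 for SLC4A4, -0.49 for GRM8, -0.39 for SFN, -0.59 for NFAT5, -0.69 for NRF1 and -0.23 for BARX2. JAG1 was -0.0059 with the deposited values and LIPA 0.053 on slide 2 alone. The cause was not tested, apart from the fewer arrays or probes in some settings. Normexp followed by quantile normalization was chosen after seeing the data, and 11 of the 28 named probes that passed kept a p under 0.05 with it. Samples with the same replicate number deviated together, with correlations of 0.21 to 0.37 over 3 NC and NK pairs. Over 4 HC and HK pairs the correlations were 0.07 to 0.40, with 3 over 0.1. Pairs with other numbers averaged -0.099 and -0.057, or -0.0093 and 0.016 on the same slide. Same-number samples were thus more alike on average. The main fit did not use the numbers, because not every pair was over 0.1. Whether same-number samples shared a ewe is not given, and the p-values of the main fit rest on unpaired samples. With the replicate block 24 of the 28 kept a p under 0.05, and 5 qPCR genes passed that did not without it, CD14, NFKBIA, PTX3, TLR2 and TNF. The same 5 passed with the block within each oxygen condition, where 20 of the 28 kept a p under 0.05. The number of arrays, and the single NC array on slide 2, limit the precision.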
